A study of Mus musculus with 8 samples.

Results

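The genes described here are 9 members of 2 linked protease systems in mouse leukaemia cells. They are the intracellular serpins Serpinb1a, Serpinb2, Serpinb6a, Serpinb8, Serpinb9 and Serpinb10, and the plasminogen activation genes Plau, Plaur and Plat. They were taken by symbol from the 23361 rows of the authors' deposited table, and all 9 were found. The set was selected on the same FPKM values and q-values that are reported here, so the genotype differences of these genes are given as a description and support nothing further.

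Serpins are suicide inhibitors: a target protease cuts an exposed loop of the serpin and is trapped on it. The clade B serpins lack a classical secretion signal and mostly stay inside the cell, where in blood cells they guard against proteases that leak from granules. Plasminogen activation works outside the cell: the activators Plau (urokinase) and Plat (tissue type) cut plasminogen to plasmin, which degrades fibrin and matrix. The receptor encoded by Plaur holds urokinase on the cell surface, and Serpinb2, also known as plasminogen activator inhibitor type 2, joins the systems because it inhibits urokinase.

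Poly(A) RNA had been sequenced from leukaemia lines of strain 129S6, made from mouse bone marrow with the fusion oncogene MLL-AF9. The genotypes were Cdc73fl/fl CreERT2, in which Cdc73 can be excised, called floxed below, and the wild type Cdc73 +/+ CreERT2, called control; Cdc73 encodes a subunit of the PAF1 elongation complex. Lines of both genotypes carry MLL-AF9 and the inducible recombinase, were grown with interleukin 3, and were treated with 7.5 nM 4-hydroxytamoxifen for 24 or 48 h, with 2 biological duplicates in each of the 4 groups. No untreated library was analysed here and the genotypes are separate lines, so a difference that existed before treatment cannot be told apart from one that followed excision. The table gives 1 FPKM value per gene and group (a fragment count scaled to transcript length and library size), with the duplicates already combined, so no value below has an SD. A gene is said to be called where the q-value deposited for that time is under 0.05. Log2 changes are floxed minus control values of log2(FPKM + 1), so that changes of weakly expressed genes come out too small.

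Facts of the whole table bear on these genes as follows. Cdc73 stood at 26.2 FPKM in control cells against 5.96 in floxed cells at 24 h, and at 26.9 against 5.45 at 48 h. Reads per library are not given, and the 4 columns sum to between 653299 and 699193 FPKM. Among the 5 listed myeloid leukaemia markers, Ptprc, Itgam, Mpo and Kit were above 1 FPKM in every group and Cd34 was between 0.254 and 0.690. Of 4 T cell markers, Cd3e was listed at 0 throughout and Lck alone reached 1 FPKM, between 1.18 and 2.02, without a call. No endothelial, fibroblast, B cell or NK cell marker reached 1 FPKM in any group. Because these are bulk cultures, fewer cells of a type and less RNA per cell cannot be told apart.

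Serpinb2, Serpinb10 and Serpinb8 lie side by side on chromosome 1, in that order and all on the plus strand, with gaps of 3.40 and 40.7 kb between their entries in the table. The 250 bases before an annotated start of each are printed because these neighbours differed in the same direction between the lines, and those of Plaur are printed as the plasminogen activation gene with the widest difference at 48 h. The sequences are from RefSeq, build GRCm38.p6, at chr1:107511173-107511422 for Serpinb2, chr1:107528753-107529002 for Serpinb10, chr1:107589756-107590005 for Serpinb8 and chr7:24462233-24462482 for Plaur, all on the plus strand. Capitals mark matches on either strand to the AP-1 element TGANTCA, the AP-1-like element TGAGTAA, the PU.1 core GAGGAA, the C/EBP element TTGCNNAA or the TATA box TATAAA.
Serpinb2: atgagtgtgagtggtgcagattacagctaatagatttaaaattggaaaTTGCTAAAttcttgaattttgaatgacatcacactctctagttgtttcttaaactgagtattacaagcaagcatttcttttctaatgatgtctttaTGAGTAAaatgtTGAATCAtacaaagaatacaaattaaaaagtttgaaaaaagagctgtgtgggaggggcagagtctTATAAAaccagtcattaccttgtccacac
Serpinb10: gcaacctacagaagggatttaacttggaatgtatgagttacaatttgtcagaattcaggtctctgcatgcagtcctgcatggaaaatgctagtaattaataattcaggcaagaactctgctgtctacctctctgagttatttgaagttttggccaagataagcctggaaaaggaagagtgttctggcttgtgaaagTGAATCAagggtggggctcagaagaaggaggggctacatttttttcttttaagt
Serpinb8: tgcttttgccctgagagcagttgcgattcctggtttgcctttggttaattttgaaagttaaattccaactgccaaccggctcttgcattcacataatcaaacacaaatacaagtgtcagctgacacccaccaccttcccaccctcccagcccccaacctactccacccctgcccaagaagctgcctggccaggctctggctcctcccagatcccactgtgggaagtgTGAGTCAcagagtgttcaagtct
Plaur: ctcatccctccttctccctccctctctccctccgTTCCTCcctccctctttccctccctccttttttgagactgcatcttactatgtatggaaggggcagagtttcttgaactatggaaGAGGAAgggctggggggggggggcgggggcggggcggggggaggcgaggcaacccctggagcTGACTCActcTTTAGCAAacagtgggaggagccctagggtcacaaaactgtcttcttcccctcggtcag

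Every one of these windows holds 1 match to TGANTCA. In Serpinb2 it begins 94 bases before the start site, with TGAGTAA at 106 bases and TATAAA at 29 bases. In Serpinb10, Serpinb8 and Plaur the match begins 54, 23 and 69 bases before the start. Of the 6 members for which RefSeq windows were matched, these 4 have the element; the windows of Serpinb6a and Serpinb9 have no match to any of the 5 motifs. For comparison, TGANTCA is found in 6.75% of 32851 windows of the same length over all genes, TGAGTAA in 2.25%, GAGGAA in 23.3%, TTGCNNAA in 9.56% and TATAAA in 12.4%. The 2 Serpinb2 windows overlap and share their AP-1 and TATA matches. The motifs were chosen after the values and sequences had been seen, and a match is a description of letters, not of a bound site.

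At 24 h of treatment 7 of the 9 genes were called higher in floxed cells and none lower; the 2 without a call were Serpinb1a and Plat. Over all 10767 genes at 1 FPKM or more in either line, 27.4% were called, 13.0% higher and 14.3% lower. At 48 h 6 of the 9 were called higher and 1, Serpinb1a, lower, while over 11030 genes 56.6% were called, 25.6% higher and 31.0% lower. The median log2 change of the 9 was 0.47 at 24 h and 1.54 at 48 h, beside medians of -0.02 and -0.06 over all genes tested. Of the 9, 8 passed the level of 1 FPKM at each time. Serpinb2, Serpinb8 and Serpinb10 passed it only through floxed cells, where they are high, and the choice of members used these same contrasts, so nothing is read from the counts.

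**Figure D1:**
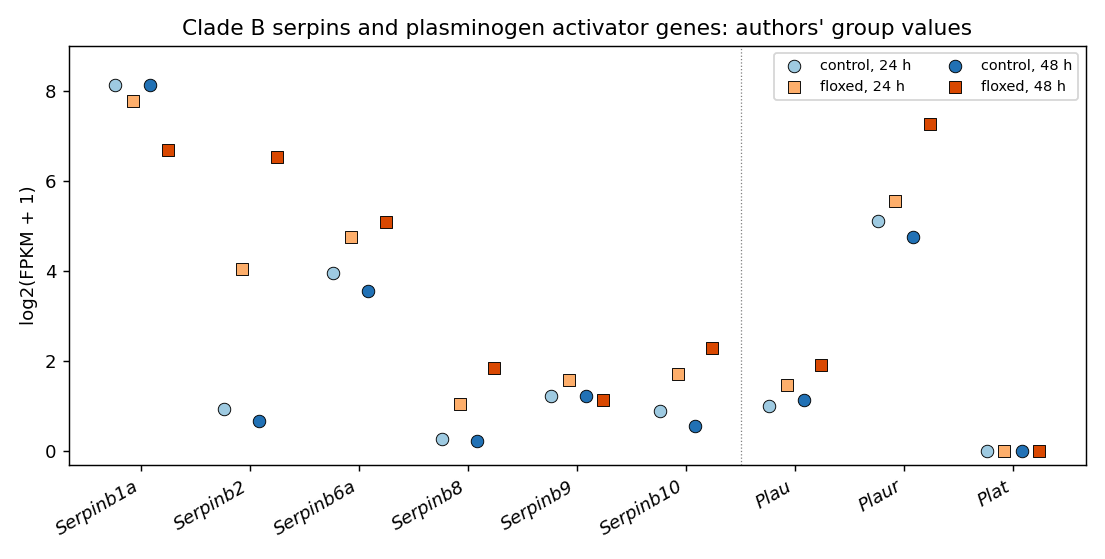
Level of each gene on the log2(FPKM + 1) axis in the 4 groups, 1 point per group (circles control, squares floxed; light 24 h, dark 48 h), with serpins left of the dotted line and plasminogen activation genes right of it. Serpinb1a is the highest serpin in every group, Serpinb2 climbs from 0.605 FPKM in control cells to 92.0 in floxed cells at 48 h, and Plat is listed at 0 throughout.

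Serpinb2 had the widest difference of the 9. This inhibitor of urokinase is known as a product of activated monocytes and macrophages. Its level was 0.922 FPKM in control cells against 15.7 in floxed cells at 24 h, and 0.605 against 92.0 at 48 h. The floxed line therefore stood far above the control line at both times, and its level at 48 h was 5.87 times that at 24 h. The log2 changes were 3.12 and 5.86 (authors' q-values 0.000449 and 0.000165), which rank Serpinb2 at place 53 of 10767 genes at 24 h and place 17 of 11030 at 48 h, counted from the highest. As ratios of the deposited values the differences are 17.0-fold and 152-fold, but both rest on control levels under 1 FPKM. The gene spans chr1:107511423-107535478 in GENCODE M21 (mm10 assembly; ENSMUSG00000062345.10, 8 exons in its main transcript).

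Its neighbours Serpinb10 and Serpinb8 followed the same order of groups at a much lower level. Serpinb10, or bomapin, is a serpin of haematopoietic cells. It stood at 0.872 FPKM in control cells against 2.28 in floxed cells at 24 h, and at 0.482 against 3.91 at 48 h, with log2 changes of 0.81 and 1.73. Serpinb8, an inhibitor of the processing protease furin, stood at 0.202 against 1.08 at 24 h and at 0.163 against 2.63 at 48 h, with log2 changes of 0.79 and 1.64. Both had the smallest q-value of the table at each time, a value shared by 1328 rows at 24 h and 3684 rows at 48 h. For either gene the floxed levels are the highest of the 4 groups, and the control levels are all under 1 FPKM.

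Serpinb10 carries an annotation limit. GENCODE M21 lists it as a polymorphic pseudogene (chr1:107529003-107549271, ENSMUSG00000092572.7), a locus that is coding in some strains only. Its Serpinb2 gene runs on into Serpinb10 on the same strand, whereas the 2 entries of the authors' table lie 3.40 kb apart. The annotation used by the authors is not given, so it is not known whether reads were shared between the 2 genes. The Serpinb10 level was 0.946 times the Serpinb2 level in control cells at 24 h and 0.796 times at 48 h, against 0.146 and 0.0425 times in floxed cells. These ratios cannot show how reads were split between the 2 genes, and any part of shared reads in the Serpinb10 values was not tested.

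The other 9 serpins of the chromosome 1 cluster stayed low in all groups. The cluster spans 748 kb in the table and holds 12 clade B serpins, of which 6 were listed at 0 in every group and only Serpinb2, Serpinb8 and Serpinb10 reached 1 FPKM. Serpinb12 was called higher at 48 h, at 0.0991 FPKM in control cells against 0.566 in floxed cells, and is named here after its values were seen. Within 500 kb of the cluster the table has 4 other genes. Bcl2, the apoptosis inhibitor, stood at 1.16 against 0.635 at 24 h and at 1.18 against 0.336 at 48 h, and was called lower both times. Kdsr, an enzyme of sphingolipid synthesis, was called lower at 48 h, at 5.08 and 2.58, while Vps4b and Phlpp1 had no call.

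**Figure D2:**
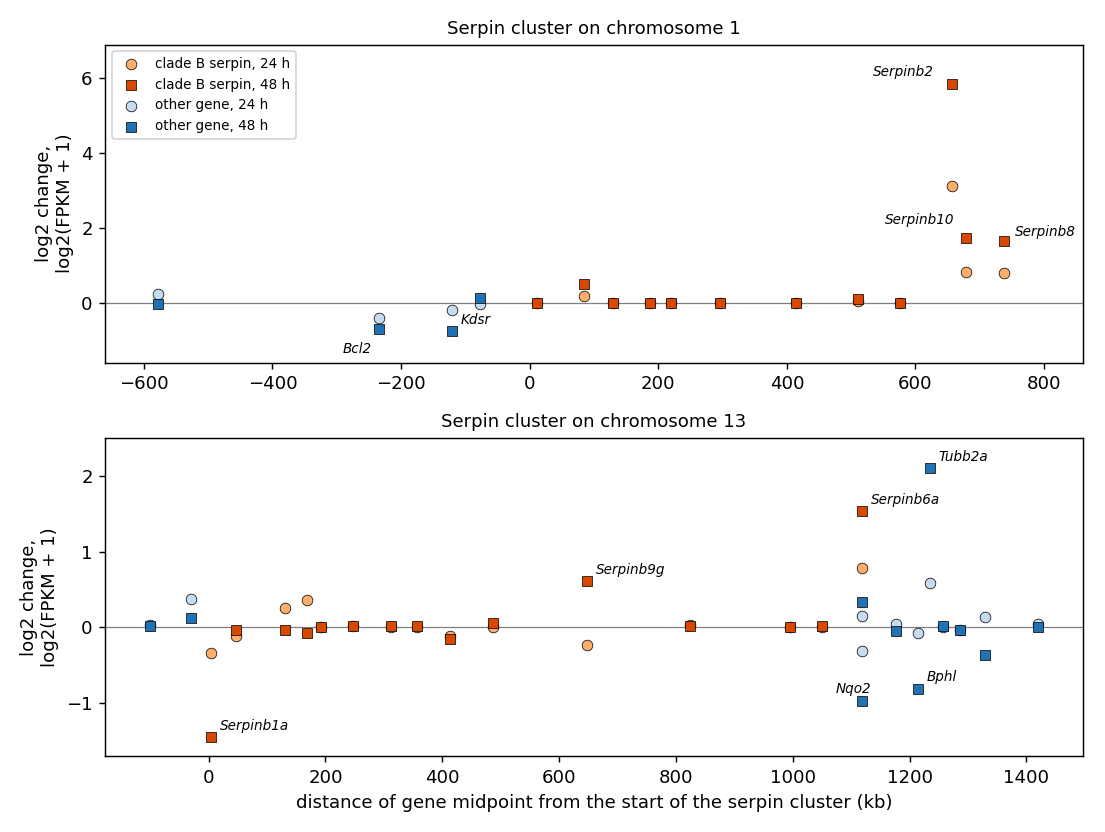
Log2 change (floxed minus control, log2(FPKM + 1)) against the distance of each gene's midpoint from the start of the serpin cluster in kb, for chromosome 1 (top) and chromosome 13 (bottom); circles are 24 h, squares 48 h, orange clade B serpins, blue other genes. On chromosome 1 the wide differences sit at Serpinb2, Serpinb10 and Serpinb8 at one end. On chromosome 13 Serpinb1a and Serpinb6a lie at opposite ends and on opposite sides of 0. The widest difference there at 48 h, 2.11, is that of the flanking gene Tubb2a, which is not a serpin.

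Serpinb1a was the most abundant of the serpins and went the other way. It encodes an inhibitor of the neutrophil proteases elastase, proteinase 3 and cathepsin G and lies at chr13:32842092-32851185 on the minus strand (ENSMUSG00000044734.16). Its level was 278 FPKM in control cells against 219 in floxed cells at 24 h, and 279 against 102 at 48 h. The control levels were almost equal at the 2 times, and the floxed level was the lowest at 48 h. The difference of -0.34 at 24 h had no call (q = 0.0578), and that of -1.44 at 48 h, 2.74-fold lower, had q = 0.000165.

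Serpinb6a, an inhibitor of cathepsin G that is found in many cell types, was higher in floxed cells. Its level was 14.7 FPKM in control cells against 26.0 in floxed cells at 24 h, and 10.7 against 33.1 at 48 h, which is 1.77-fold (q = 0.0141) and 3.08-fold (q = 0.000165) higher. Its entry in the table, chr13:33917917-34002794, is shared with Nqo2 and 1110046J04Rik, which lie on the opposite strand, and the sources used here do not say whether the libraries kept strand. The split of reads at this locus is therefore uncertain. Nqo2, a quinone reductase, stood at 17.4 against 13.8 at 24 h and at 17.6 against 8.52 at 48 h. The ratio of Serpinb6a to Nqo2 was 0.842 against 1.88 at 24 h and 0.610 against 3.88 at 48 h, control before floxed. How far the shared entry bears on these values was not tested.

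Serpinb9 inhibits granzyme B, the killing protease of cytotoxic lymphocytes. It was low in all groups, at 1.33 FPKM in control cells against 1.99 in floxed cells at 24 h, and at 1.34 against 1.22 at 48 h. Of the 8 genes that were detected, this one alone was called at 24 h (1.50-fold higher, q = 0.0154) and not at 48 h (log2 change -0.08, q = 0.637). Whether the 2 times differ was not tested, since the table holds 1 value per group.

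The rest of the chromosome 13 cluster stayed low. The cluster holds 15 clade B serpins over 1161 kb, and beside Serpinb1a, Serpinb6a and Serpinb9 only Serpinb9g reached 1 FPKM in any group, at 0.876 in control cells against 1.86 in floxed cells at 48 h (q = 0.000731). At 24 h Serpinb6b was called higher, at 0.142 and 0.371. Genes other than serpins in or within 500 kb of this cluster went both ways. Tubb2a was called higher at both times, at 1.85 FPKM in control cells against 11.3 in floxed cells at 48 h. Wrnip1 was called higher at 24 h only, and Nqo2 and Bphl were called lower at 48 h only. In all, of the 21 clade B serpins outside the 9 genes, 1 was called higher at 24 h and 2 at 48 h, none was called lower, and 8 were listed at 0 in every group. Over all genes tested, 13.0% were called higher and 14.3% lower at 24 h, and 25.6% and 31.0% at 48 h. Those shares cover genes at 1 FPKM or more, a level that only 1 of the 21 reached in any group, so nothing is read from the counts.

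The mix of clade B serpin transcripts differed between the lines. Summed over the 27 clade B serpins, the level was 298 FPKM in control cells against 268 in floxed cells at 24 h, and 293 against 238 at 48 h. Serpinb1a held 93.4% of that sum in control cells at 24 h and 94.9% at 48 h, against 81.8% and 42.8% in floxed cells. Serpinb2 held 0.310% and 0.206% in control cells and 5.85% and 38.7% in floxed cells. Serpinb6a held 4.93% and 3.66% in control cells and 9.72% and 13.9% in floxed cells. These shares compare FPKM, which is scaled to transcript length, and with 1 value per group they have no test.

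**Figure D3:**
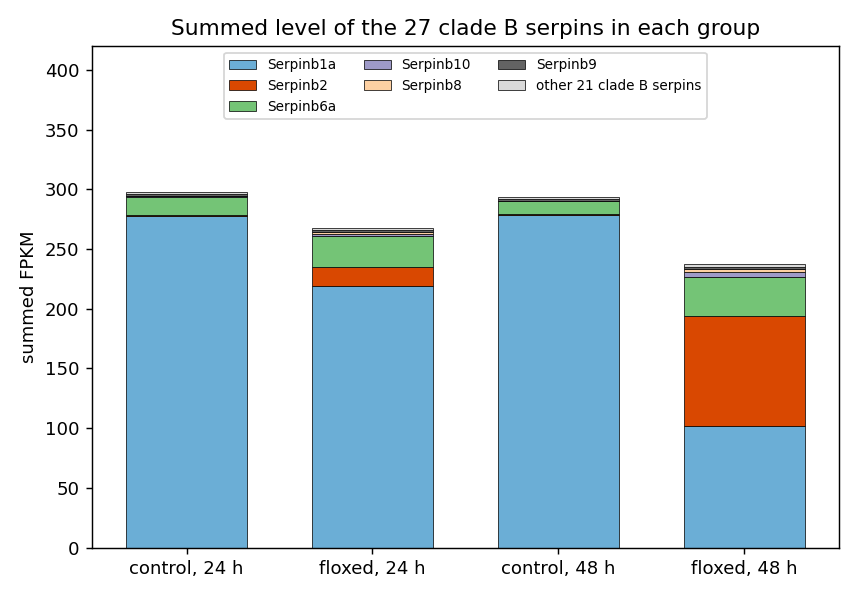
Summed FPKM of the 27 clade B serpins in each group, as bars from 0 divided by gene. Serpinb1a fills 94.9% of the control bar and 42.8% of the floxed bar at 48 h, where Serpinb2 fills 38.7%.

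Among the plasminogen activation genes, the urokinase receptor differed most at 48 h. Plaur lies at chr7:24462484-24475968 (ENSMUSG00000046223.10). Its level was 33.7 FPKM in control cells against 45.9 in floxed cells at 24 h, and 26.1 against 152 at 48 h. Floxed cells were higher by 1.36-fold (q = 0.00895) and 5.83-fold (q = 0.000165), and the floxed level at 48 h was 3.31 times that at 24 h, whereas the control level was 0.774 times.

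Plau, which encodes urokinase itself, stayed low. It lies at chr14:20836660-20843385 (ENSMUSG00000021822.3) and stood at 1.01 FPKM in control cells against 1.78 in floxed cells at 24 h, and at 1.21 against 2.77 at 48 h. The differences were 1.76-fold (q = 0.00364) and 2.28-fold (q = 0.000165). Plat, on chromosome 8, was listed at 0 in every group, so of the activators only urokinase had a measured level.

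Set against the protease it inhibits, Serpinb2 stood near or below Plau in control cells and far above it in floxed cells. The ratios rest on low levels. In control cells Serpinb2 was at 0.922 and 0.605 FPKM and Plau at 1.01 and 1.21, and Plau reached at most 2.77 in any group. In units of FPKM, the Serpinb2 level was 0.912 times the Plau level in control cells against 8.80 times in floxed cells at 24 h, and 0.499 and 33.2 times at 48 h. Plaur exceeded Plau in every group, by 33.4 times in control cells against 25.8 times in floxed cells at 24 h, and by 21.5 against 55.0 times at 48 h. These are ratios of transcript levels in groups without replicate values, and say nothing of protein.

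**Figure D4:**
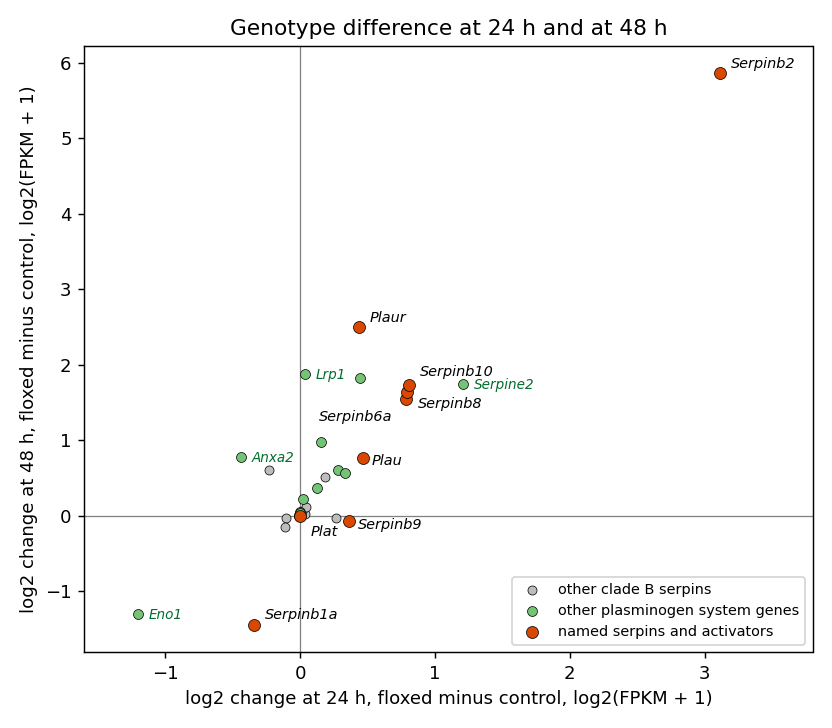
Log2 change at 24 h (x axis) against that at 48 h (y axis), floxed minus control on the log2(FPKM + 1) scale, 1 point per gene: orange the 9 genes described, grey the other clade B serpins, green other genes of the plasminogen system. Serpinb2 stands at 3.12 and 5.86, Serpinb1a is the only orange point below -1 at 48 h, and most grey points lie near 0 because the genes are hardly expressed.

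Of 16 other genes of the plasminogen system, 4 were called higher and 2 lower at 24 h, and 7 higher and 1 lower at 48 h; 7 reached 1 FPKM. Over all genes tested, which stood at 1 FPKM or more in either line, 27.4% and 56.6% were called. The 16 include genes below that level, so their counts are not on the same basis. All 7 that reached it were called at 48 h, but the list was chosen with earlier results known, so nothing is read from this. The median log2 change of the 16 was 0.01 at 24 h and 0.30 at 48 h. Serpine2, a secreted inhibitor of urokinase and thrombin, stood at 1.11 FPKM in control cells against 3.89 in floxed cells at 24 h and at 1.13 against 6.16 at 48 h, called higher each time. Plasminogen itself, Plg, was at or near 0.

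Cell surface partners of the system were mostly higher at 48 h. S100a10, which with annexin A2 forms a plasminogen receptor, was higher by 1.37-fold at 24 h and 3.62-fold at 48 h, at 30.4 and 110.0 FPKM. Anxa2 was lower at 24 h, at 239 and 176, and higher at 48 h, at 204 and 351, and its entry is shared with 1 other gene. Plgrkt, a plasminogen receptor, was 1.99-fold higher at 48 h (48.3 and 96.1), and Lrp1, which clears protease and inhibitor complexes, 4.47-fold higher (3.37 and 15.0), neither with a call at 24 h. Thbd, the thrombin receptor thrombomodulin, was called higher at both times, by 1.30-fold at 24 h (q = 0.0441) and 1.54-fold at 48 h. Eno1, a glycolytic enzyme that also binds plasminogen at the surface, was lower by 2.31-fold at 24 h and 2.47-fold at 48 h; it too shares its entry with another gene.

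The proteases that clade B serpins are known to inhibit went both ways. Of 17 listed, 1 was called higher and 2 lower at 24 h, and 7 higher and 3 lower at 48 h. Over all genes tested, which stood at 1 FPKM or more in either line, 27.4% were called at 24 h and 56.6% at 48 h. At that level stood 11 of the 17 at 24 h and 13 at 48 h, and these held all the calls. The list was chosen with earlier results known, so nothing is read from the counts. Ctsg, cathepsin G, a target of Serpinb1a and Serpinb6a, stood at 1602 FPKM in control cells against 540.2 in floxed cells at 24 h and at 1656 against 381 at 48 h, called lower each time. Elane, neutrophil elastase, stood at 3374 against 3067 at 24 h and at 3587 against 1745 at 48 h, with a call at 48 h only (q = 0.0201). Prtn3, proteinase 3, stood at 2253 and 2121, and at 2332 and 1362, without a call (q = 0.956 and 0.0860). Elane and Prtn3 share 1 long entry with other genes, so their values are uncertain.

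Summed over Elane, Prtn3 and Ctsg, protease transcripts were 26.0 times the Serpinb1a level in control cells against 26.2 times in floxed cells at 24 h, and 27.2 and 34.3 times at 48 h. At 48 h both Serpinb1a and the protease sum lay lower in floxed cells, with the sum at 7574 FPKM in control cells against 3489 in floxed cells. Most of that sum is Elane and Prtn3, whose values are uncertain, and Prtn3 had no call. The Ctsg level was 154 times that of Serpinb6a in control cells against 11.5 times in floxed cells at 48 h.

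The other targets varied in direction and level. Furin, which Serpinb8 inhibits, was 1.85-fold higher at 48 h (23.8 and 44.1 FPKM). The lysosomal cathepsins Ctsl and Ctss were 3.39-fold and 2.81-fold higher at 48 h, and Ctsk and Ctsf stood at 0.146 and 3.83 and at 0.681 and 1.96. Casp1, the caspase that matures interleukin 1, was 1.45-fold higher at 48 h, whereas Casp4, which senses lipopolysaccharide in the cytosol, was lower by 6.95-fold at 24 h and 3.03-fold at 48 h. Casp8, the initiator caspase of death receptors, stood at 47.4 against 48.6 at 24 h and 44.4 against 47.0 at 48 h, without a call (q = 0.883 and 0.687). Gzmb, the target of Serpinb9, was listed at 0 in every group, and Gzmm stood at 0.562 against 3.12 at 48 h.

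Most serpins of other clades were hardly expressed. Of 26 listed, 3 reached 1 FPKM at each time, and 1 of these was called higher and 2 lower, beside 27.4% and 56.6% called over all genes tested at 24 and 48 h. Serpina1b, a form of antitrypsin, was listed at 0 in control cells and at 1.17 and 1.28 FPKM in floxed cells at 24 and 48 h. Serpinf1, an extracellular factor without inhibitory activity, was lower by 3.09-fold at 24 h and 2.80-fold at 48 h, and Serpina3g 3.07-fold and 2.57-fold lower, with its entry shared with Serpina3f.

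Markers of mature myeloid cells differed at 48 h as well. All 8 neutrophil markers were called higher, with a summed level of 6727 FPKM in control cells against 24813 in floxed cells, as were all 6 listed monocyte and macrophage markers, at 2522 and 6419. Of the neutrophil sums at 48 h, S100a8 made up 4134 and 16679. Over all genes tested, 13.0% were called higher and 14.3% lower at 24 h, and 25.6% and 31.0% at 48 h. At 24 h the neutrophil sums were 8922 and 7963, of which S100a8 made up 5445 and 5757, and single markers went both ways. The neutrophil genes Mmp8, Cxcr2 and Camp were called higher, by 1.92-fold, 1.80-fold and 1.42-fold, and S100a9 and Mmp9 were called lower, by 2.21-fold and 2.40-fold. The monocyte and macrophage sums at 24 h were 3124 and 3162, with Cd68 alone called, 1.43-fold lower. Of 5 mast cell and basophil markers 2 were called higher at each time: Mcpt8 stood at 3.16 against 8.77 at 24 h and 3.52 against 5.92 at 48 h, and Ms4a2 was 3.85-fold and 2.75-fold higher, while Tpsb2 and Fcer1a were listed at 0 in every group. Of 3 eosinophil markers in the table, 2 were called higher at each time, with sums of 2.02 and 104 at 24 h and 1.38 against 72.2 at 48 h. Of these sums, Prg2 made up 1.94 and 92.6 at 24 h and 1.31 and 66.6 at 48 h. Il5ra stood between 0.0248 and 0.0710 FPKM without a call. Of 3 megakaryocyte markers, 0 were called at 24 h and 2 were called higher at 48 h. At 48 h Pf4 stood at 0.977 against 10.8 and Itga2b at 0.0245 against 1.07, and Ppbp had no call. Of the 5 listed myeloid leukaemia markers, 1 was called higher and 2 lower at 24 h, and 2 higher and 3 lower at 48 h. At 48 h Kit was 3.16-fold and Cd34 2.72-fold lower, and Ptprc and Itgam were 1.79-fold and 2.18-fold higher. Mpo was called higher at 24 h, at 1145 against 1986, and lower at 48 h, at 1368 against 1011. The part of these cell states in the serpin and Plaur values was not tested.

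The levels at the 2 times can also be set side by side within each line. The control 48 h level was between 0.552 times (Serpinb10) and 1.20 times (Plau) the 24 h level for the 8 genes with a level above 0. In floxed cells the range was from 0.465 times (Serpinb1a) to 5.87 times (Serpinb2). The table does not state whether both times were scaled together, so these ratios carry no call.

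The genes nearest to a member in pattern were sought by Euclidean distance between the 4 log2(FPKM + 1) values, each gene centred on its own mean, among 11150 genes. Nearest to Serpinb2 were Stfa3, a stefin A cysteine protease inhibitor, at a distance of 0.321, then Chi3l1, a chitinase-like protein, at 0.568 and Car4, a carbonic anhydrase, at 1.22. Stfa3 stood at 42.7, 340.1, 34.0 and 1577 FPKM in control 24 h, floxed 24 h, control 48 h and floxed 48 h cells. Nearest to Plau were Dvl1 at 0.0274, the transcription factor gene Nfe2 at 0.0397 and Slc25a14 at 0.0451. Serpinb1a lay closest to Gria3 (0.0685), Magt1 (0.0758) and Frat2 (0.0762). Distances are small where changes are small, so they compare genes for 1 member and not between members.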

How the data were processed

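The study sequenced poly(A) RNA from 8 libraries, 2 in each of 4 groups. The submitters' processing notes name Cufflinks 2.1 and Cuffdiff, the aligner Bowtie2 and the genome mm10, without saying how each was run; the sources used here give neither strandedness nor the annotation. The deposited table has, per its file headers, an FPKM value of the authors for every gene in each group and, for each time, their q-value for the genotype difference. Depth per library is unknown, so no interval or detection limit was computed.

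With 1 value per group no test could be fitted; calls are the authors' q under 0.05, and their direction is that of the FPKM values. Log2 changes used a pseudocount of 1. Background counts cover genes at 1 FPKM or more in either group compared, leaving out 27 rows whose names had become numbers. Members, lists and motifs were chosen with earlier results of these data known. Named beside the members are list genes at 1 FPKM or more in any group with a call at either time, at most 10 a list by size of the 48 h change, and the 3 genes nearest in pattern to Serpinb2, Plau and Serpinb1a. Spi1 and Siglecf are not listed under those symbols, and Adgre1 is listed as Emr1. Prtn3, Plg, Casp8, Gzmb, Serpinb12, Serpinb6b, neighbours of the serpin clusters and cell type markers are named outside that rule, after their values were seen. Some listed genes are not reported here by name. Coordinates are 1-based, from GENCODE M21, except entries said to be the table's. Scripts ran in Python 3.11.15 with pandas 2.3.3 and numpy 2.4.6, and were tested on simulated data. Alternatives were other pseudocounts, level filters, scalings and a stricter q.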

Additional observations from a re-analysis of the deposited data

How the results depend on the processing

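No paired analysis was possible because the deposited table holds 1 value per group, and for the same reason no replicate could be left out. All 9 genes kept the direction of their difference, where they had one, with pseudocounts of 0.1 and 5, with groups rescaled to the same sum and under quantile normalization. The median log2 change of the 9 genes moved with the pseudocount: at 24 h adding 0.1 gave 0.76 and adding 5 gave 0.23, and at 48 h adding 5 gave 0.56. Low genes make up much of the set, and the pseudocount sets the size of their log2 change by construction. With q under 0.01 Serpinb6a and Serpinb9 lost their calls at 24 h, and the other calls of the 9 genes stayed. Over all genes tested at 24 h, 1946 were called with q under 0.01, against 2945 with q under 0.05. Depth is unknown, and Serpinb8, Serpinb9, Serpinb10, Plau and Plat stood below 5 FPKM in every group.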
